A study of Homo sapiens with 60 samples.

Results

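PC9 cells that had resumed growth after 7 days without osimertinib were compared with PC9 drug-tolerant persisters (DTPs) that were still in the drug. The libraries were chosen by their labels alone, long washout replicates 1 to 3 and DTP replicates 1 to 3 of this line, which are 6 of the 60 RNA-seq samples of the series. PC9 is an established EGFR-mutant lung adenocarcinoma line, and osimertinib is a third-generation inhibitor of the EGFR kinase. The series holds 4 such lines in 5 arms with 3 replicates each. Both groups compared here had been kept in 500 nM osimertinib for 21 days. The DTPs were collected at that point, and the long washout cells were rinsed, given medium without drug and collected 7 days later, when the culture was again growing exponentially. The harvest was therefore set by growth, so that higher levels of proliferation genes are in part how the group was defined. Values in DMSO (24 h) and 24 h after washout (short washout) are given as points of reference. Values in cells treated with 500 nM osimertinib for 24 h (acute) are given for NRF2 targets and for cholesterol and fatty acid synthesis. The sources used here do not say whether the replicates of this 1 line came from separate cultures, so the p-values measure the spread between these libraries, which may be technical. Each library is bulk RNA, in which fewer cells of a state and less RNA per cell cannot be told apart.

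EGFR signals through the RAS, RAF, MEK and ERK kinases and through PI3K and AKT. ERK induces its own brakes, the DUSP phosphatases and the Sprouty proteins, together with ETS factors of the PEA3 group (ETV1, ETV4 and ETV5), and AKT holds the FOXO transcription factors out of the nucleus. Persisters are cells that survive an inhibitor without a resistance mutation, often in a slow-cycling state, and that can return to growth once the drug is withdrawn.

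The 3 long washout libraries were not alike. The 6 libraries held 34.7 to 45.1 M estimated counts, and the 15 PC9 libraries 34.7 to 47.1 M. Over 12856 genes, long washout replicates 1 and 2 lay 0.65 and 0.81 log2 units (root mean square) from the mean of the DTPs, while replicate 3 lay 0.35 away. Single DTP libraries lay 0.26 to 0.28 from the mean of the other DTPs, and the short washout libraries 0.36 to 0.42 from the DTP mean. Long washout replicate 3 was nearer to the short washout mean (0.31) than replicates 1 and 2 (0.51 and 0.66), and it lay 1.11 from the DMSO mean, against 0.82 and 0.64. On the first component of the 15 libraries, replicate 3 sat at 26.5, within the range of the short washout libraries (19.3 to 27.4), and replicates 1 and 2 sat at -13.5 and -35.9. The squared differences between replicates, relative to counting error, were 32.7 for replicates 1 and 2, and 78.4 and 142 for the pairs with replicate 3, against 17.7 to 23.8 among DTPs. For this reason the counts for each gene list are given with and without long washout replicate 3. That library was singled out after the data were seen, as the one nearest to the DTPs. Leaving it out therefore favours larger differences and smaller p-values. The counts without it are a description and not a second, independent test. Why that library lies apart was not tested.

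**Figure D1:**
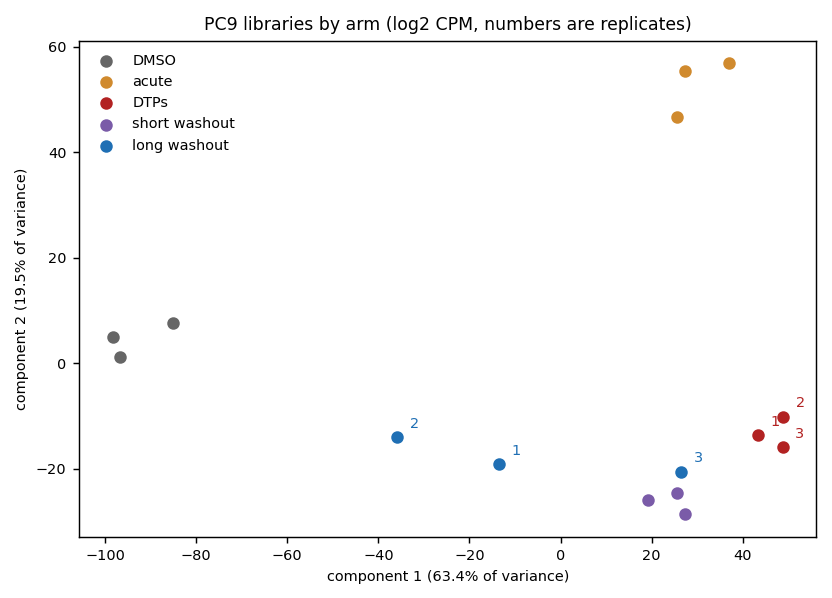
Position of the 15 PC9 libraries on the first and second principal components of log2 CPM over 12856 genes, with points coloured by arm and replicate numbers beside the DTP and long washout libraries. On the first component the DTPs lie at 43.3 to 48.8, the DMSO libraries at -98.3 to -85.1, and long washout replicates 1, 2 and 3 at -13.5, -35.9 and 26.5.

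Of 14424 genes tested, 2496 (17.3%) differed between long washout and DTPs at an adjusted p under 0.05. The higher genes numbered 1707 (11.8%) and the lower ones 789 (5.47%), and 522 of the 2496 differed at least 2-fold, 252 of them higher and 270 lower. The adjusted p of the called genes lay between 0.0262 and 0.05, with a median of 0.0343, so the calls stood close to the threshold. Without long washout replicate 3, 6815 of 14704 genes (46.3%) were called, 3638 higher (24.7%) and 3177 lower (21.6%), and 2494 of the 2496 were among them with the same sign. No gene was called when long washout replicate 1, or any 1 of the 3 DTP libraries, was left out, and 98 were called without long washout replicate 2. DESeq2 called 4225 genes in the 6 libraries, 2384 higher and 1841 lower, and edgeR 2360 with RLE size factors. The 3 values of each group did not overlap for 3673 genes that were higher (25.5%) and 2947 that were lower (20.4%) after washout. Fold changes below are log2 of long washout over DTPs with their standard error, and levels are CPM, counts scaled to a library of fixed size.

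Proliferation genes were higher in the regrowing cells in both lists examined. All 30 genes for mitosis and G2/M rose, with log2 fold changes of 0.93 to 1.32 (median 1.11). In each of them the 3 long washout libraries lay above the 3 DTP libraries, which held for 25.5% of all genes tested. Of 33 genes for DNA replication and G1/S, 28 rose and none fell (median 0.92). Over all genes tested, 11.8% were called higher and the median was 0.00. Without replicate 3, all 30 and all 33 were called higher, with medians of 1.28 and 1.11, beside 24.7% of all genes. MKI67, which encodes the Ki-67 antigen of cycling cells, stood at 150.0, 157 and 174 CPM in the DTPs and at 372, 415 and 250.0 CPM after washout. The groups did not overlap, and replicate 3 was the lowest long washout library. The log2 fold change was 1.12 ± 0.18 (SE, adjusted p = 0.0262), and 1.31 without that library.

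RRM2, the regulated subunit of ribonucleotide reductase, went from 70.7, 71.9 and 77.0 CPM in the DTPs to 212, 229 and 129 CPM after washout (1.38 ± 0.20, adjusted p = 0.0262). UHRF1, which keeps DNA methylation through replication, stood at 29.8, 26.7 and 27.9 CPM and then at 79.1, 95.8 and 40.7 CPM (1.36 ± 0.28, adjusted p = 0.0288). GINS2, part of the replicative helicase, rose by 1.30 ± 0.25 and MCM2, another part of it, by 0.92 ± 0.18, and the libraries of each gene did not overlap between groups. Among mitotic genes, DLGAP5, a spindle protein, stood at 20.3, 22.8 and 21.1 CPM and then at 56.5, 59.4 and 42.8 CPM (1.32 ± 0.14, adjusted p = 0.0262). CCNA2, the cyclin of S and G2 phase, stood at 55.0, 57.6 and 55.1 CPM in DTPs and at 138, 165 and 108 CPM after washout (1.30 ± 0.15). BIRC5, which encodes survivin, rose by 1.29 ± 0.19. Replicate 3 was the lowest long washout library for each of these genes and was still above all 3 DTPs. The replication genes not called with all 6 libraries were MCM4, MCM7, GINS3, POLE and POLE2, with log2 fold changes of 0.42 to 0.90, and these names were chosen after their values were seen.

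The 2 lists separated in the libraries around this comparison. The median of the replication list, relative to the DTP mean, was 1.08, 1.14 and 0.44 log2 units in long washout replicates 1, 2 and 3, 0.44 to 0.55 in the short washout and 1.17 to 1.25 in DMSO. The median of the mitosis list was 1.19, 1.35 and 0.76 in the long washout libraries, but 0.10 to 0.30 in the short washout and 1.46 to 1.64 in DMSO. Replicate 3 was thus at the short washout level in replication genes and above it in mitotic genes.

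Promoter sequence differed between the 2 proliferation lists. The shares below depend on which genes are on the lists and use no fold change, so they describe the lists and not the effect of washout. The RefSeq promoters (GRCh38.p14, 250 bases before to 50 after the start) were read on both strands, and 27 of 33 replication genes, 24 of 30 mitosis genes and 11256 of 14424 tested genes had an entry. TTTCCCGC or TTTGGCGC, 2 forms of the site of E2F factors, was present in 17 of the 27 replication promoters (63.0%), in 1 of the 24 mitosis promoters (4.17%) and in 3.56% of all promoters. TTTGAA, the core of the cell cycle homology region (CHR), was in 14 of the 24 mitosis promoters (58.3%), in 3.70% of the replication promoters and in 9.81% of all. CCAAT, the box bound by NF-Y, was in 79.2% of mitosis promoters, 55.6% of replication promoters and 4057 of the 11256, and CCAAT together with TTTGAA in 12 of the 24, 1 of the 27 and 4.02% of all. Of 19 promoters of ribosome biogenesis genes, 5.26% held an E2F form and 36.8% a CCAAT box. Such a match describes letters in a window, and matches of different motifs may share bases. The promoters of 2 of the highest replication genes and 2 of the highest mitosis genes are shown, with the matches to these motifs, on either strand, in capitals. RRM2 lies at chr2:10122489-10122788 (plus strand), UHRF1 at chr19:4909251-4909550 (plus), DLGAP5 at chr14:55191536-55191835 (minus) and CCNA2 at chr4:121823834-121824133 (minus).
RRM2: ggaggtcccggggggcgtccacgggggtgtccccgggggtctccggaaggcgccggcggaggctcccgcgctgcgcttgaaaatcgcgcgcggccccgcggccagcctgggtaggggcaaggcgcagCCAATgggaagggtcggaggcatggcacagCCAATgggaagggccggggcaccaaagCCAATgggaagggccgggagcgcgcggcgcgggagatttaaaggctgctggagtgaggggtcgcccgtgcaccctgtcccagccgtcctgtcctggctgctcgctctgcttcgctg
UHRF1: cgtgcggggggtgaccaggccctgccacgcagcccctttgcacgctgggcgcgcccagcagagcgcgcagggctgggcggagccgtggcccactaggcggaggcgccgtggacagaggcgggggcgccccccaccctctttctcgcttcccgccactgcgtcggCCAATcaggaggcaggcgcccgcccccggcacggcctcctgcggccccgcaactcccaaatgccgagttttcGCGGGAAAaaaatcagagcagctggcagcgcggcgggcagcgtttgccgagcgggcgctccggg
DLGAP5: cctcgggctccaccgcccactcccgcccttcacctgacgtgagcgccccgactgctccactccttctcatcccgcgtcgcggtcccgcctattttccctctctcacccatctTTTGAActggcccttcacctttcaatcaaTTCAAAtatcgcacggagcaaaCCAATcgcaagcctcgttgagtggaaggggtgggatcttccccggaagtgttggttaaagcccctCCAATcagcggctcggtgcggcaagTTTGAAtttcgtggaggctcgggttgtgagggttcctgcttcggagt
CCNA2: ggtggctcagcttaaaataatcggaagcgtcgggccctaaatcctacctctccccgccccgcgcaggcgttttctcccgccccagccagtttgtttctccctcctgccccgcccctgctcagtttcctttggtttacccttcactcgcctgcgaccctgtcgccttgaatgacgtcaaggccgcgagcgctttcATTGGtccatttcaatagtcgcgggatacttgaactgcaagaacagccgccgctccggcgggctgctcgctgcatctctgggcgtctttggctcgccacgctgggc
RRM2 held 3 CCAAT boxes and none of the E2F forms in this window, and UHRF1 held 1 TTTCCCGC (read on the other strand) and 1 CCAAT. DLGAP5 held 3 TTTGAA and 2 CCAAT, and CCNA2 held 1 CCAAT (on the other strand) and no TTTGAA. By these exact matches RRM2 and CCNA2 do not show the contrast between the lists. Variant forms of the sites were not searched, so a site of another spelling may be present.

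**Figure D2:**
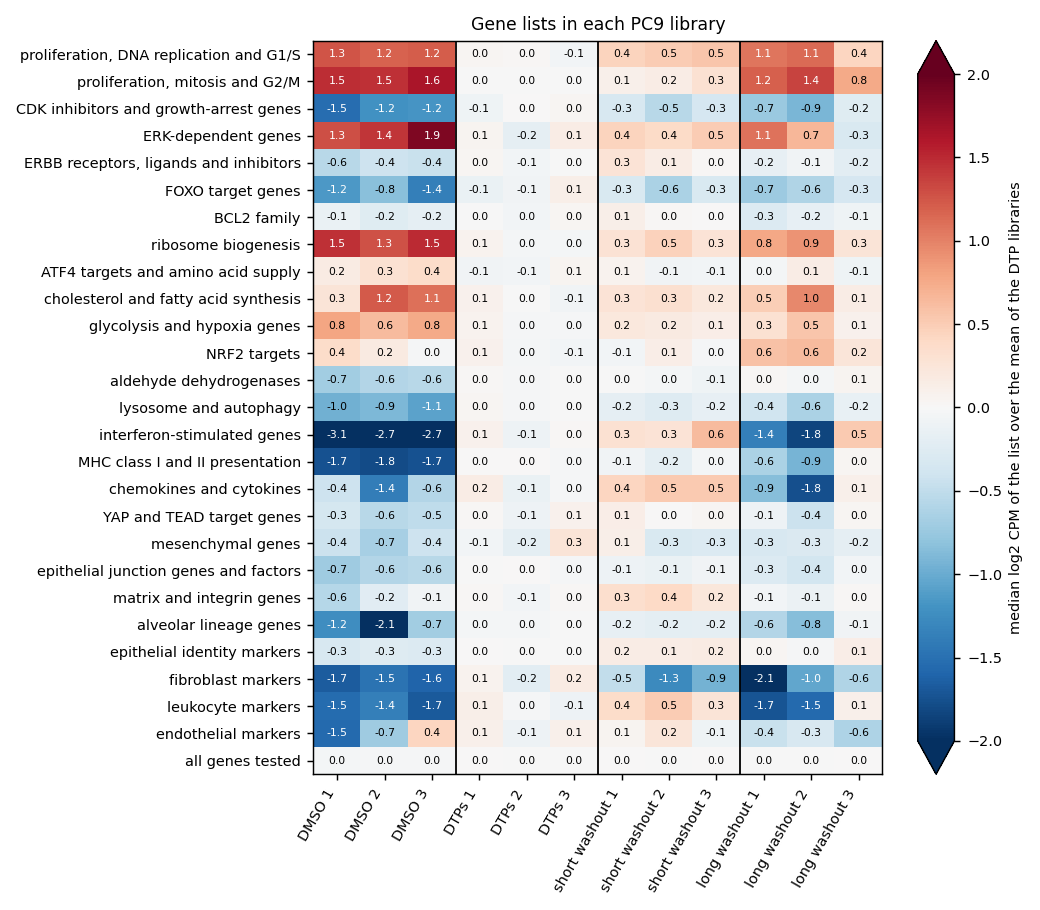
Median over the tested members of each gene list of log2 CPM minus the mean of the DTP libraries, for 12 PC9 libraries (columns) in 4 arms. Mitosis genes stand at 1.19, 1.35 and 0.76 in the long washout libraries, and interferon-stimulated genes at -1.37, -1.83 and 0.53.

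Growth-arrest genes moved the other way. Of 20 genes for CDK inhibitors and growth arrest, 5 fell and 2 rose (median -0.60), beside 5.47% lower and 11.8% higher among all genes. Without replicate 3, 15 fell and 2 rose (median -0.87), beside 21.6% and 24.7%. YPEL3, a growth suppressor, was at 81.5, 97.5 and 84.9 CPM in the DTPs and at 25.6, 21.2 and 59.0 CPM after washout (-1.31 ± 0.35, adjusted p = 0.0444). MXD4, a partner of MAX that opposes MYC, was at 134, 130 and 134 CPM and then at 57.8, 46.9 and 101 CPM (-0.94 ± 0.26, adjusted p = 0.0461). In both genes the groups did not overlap, and replicate 3 was the long washout library closest to the DTPs. KLF9, an antiproliferative zinc finger factor, fell by 0.83 ± 0.20 (adjusted p = 0.0345). The 2 members that rose are CDK4 and CDK6 inhibitors of the INK4 family, CDKN2D (0.78 ± 0.22) and CDKN2C (0.73 ± 0.17). CDKN2C stood at 4.05, 4.07 and 4.66 CPM in the DTPs and at 7.79, 6.71 and 6.52 CPM after washout, and its mean in DMSO was 2.41 CPM. CDKN1A, which encodes p21, was at 34.1, 26.7 and 56.9 CPM and then at 23.5, 14.1 and 28.4 CPM. Its groups overlapped, and its log2 fold change of -0.82 ± 0.33 was not called (adjusted p = 0.108; -1.05 and adjusted p = 0.0326 without replicate 3). CDKN1B, which encodes p27, differed by 0.07 ± 0.10 (adjusted p = 0.641).

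Of 15 FOXO target genes and FOXO factors, 3 fell and none rose (median -0.57), beside 5.47% lower and 11.8% higher among all genes. Without replicate 3, 8 fell, beside 21.6% of all genes. PDK4, the kinase that shuts off pyruvate dehydrogenase, was at 6.50, 9.03 and 16.6 CPM in the DTPs and at 1.504, 1.67 and 3.85 CPM after washout. All 3 long washout libraries lay below the DTPs, and the log2 fold change was -2.18 ± 0.47 (adjusted p = 0.0299). FOXO4 itself fell by 1.08 ± 0.27 (adjusted p = 0.0390), and BCL6, a transcriptional repressor, by 0.74 ± 0.20 (adjusted p = 0.0462). BCL6 stood at 176, 238 and 209 CPM, and after washout at 95.3, 113 and 162 CPM, with a DMSO mean of 40.8 CPM.

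The genes that report ERK activity divided the long washout libraries. Of 19 tested, 1 rose and 1 fell (median 0.54), beside 11.8% higher and 5.47% lower among all genes. Without replicate 3, 12 rose and 3 fell of 20 tested (median 0.80), beside 24.7% higher and 21.6% lower among all genes. The median of the list relative to the DTPs was 1.08 and 0.66 in long washout replicates 1 and 2 and -0.30 in replicate 3, against 0.39 to 0.51 in the short washout. ETV4 had the highest log2 fold change of the called genes that met the limits for naming. It stood at 13.7, 10.4 and 11.5 CPM in the DTPs and at 63.5, 80.5 and 17.2 CPM after washout (2.19 ± 0.49, adjusted p = 0.0314; 2.61 without replicate 3). Its groups did not overlap, the short washout mean was 32.7 CPM and the DMSO mean 120 CPM. DUSP6, the ERK phosphatase, was at 1.63, 1.03 and 2.25 CPM in the DTPs and at 3.47, 10.8 and 1.08 CPM after washout. SPRY4, a Sprouty inhibitor, was at 2.67, 1.58 and 2.25 CPM and then at 7.20, 11.3 and 1.90 CPM. In both, replicate 3 lay among the DTPs, so the groups overlapped. Neither was called with 6 libraries (DUSP6 1.65 ± 0.73, adjusted p = 0.135; SPRY4 1.67 ± 0.57, adjusted p = 0.0736). Both were called without replicate 3, DUSP6 at 2.13 (adjusted p = 0.00782) and SPRY4 at 2.11 (adjusted p = 0.000679). Even in replicates 1 and 2, DUSP6 and SPRY4 stood below their DMSO means of 46.5 and 36.7 CPM. SPRY1, another Sprouty gene, fell by 0.74 ± 0.20 (adjusted p = 0.0427), from 21.2, 28.3 and 16.9 CPM to 11.8, 13.5 and 14.0 CPM. The other members that fell without replicate 3, named after their values were seen, were the immediate early genes FOS (-2.76, adjusted p = 0.00445) and EGR3 (-3.82, adjusted p = 0.0226). FOS was at 67.5, 128 and 284 CPM in the DTPs and at 19.7, 27.1 and 75.7 CPM after washout, so the groups overlapped and DTP replicate 3 was the highest (-1.96, adjusted p = 0.0654 with 6 libraries). EGR3 was too low to test with 6 libraries.

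Among the receptors, ligands and inhibitors of the ERBB family, 3 of 13 fell and none rose (median -0.08), beside 5.47% lower and 11.8% higher among all genes. Without replicate 3, 4 fell and 2 rose, beside 21.6% and 24.7%. EREG, the ligand epiregulin, stood at 8.40, 8.28 and 7.81 CPM in the DTPs and at 3.36, 3.46 and 3.47 CPM after washout, with a log2 fold change of -1.24 ± 0.16 (adjusted p = 0.0262) that was also -1.24 without replicate 3. Its short washout mean was 8.22 CPM. ERBB3, the kinase-impaired partner of EGFR and ERBB2, was at 202, 232 and 214 CPM and then at 126, 107 and 153 CPM (-0.74 ± 0.14, adjusted p = 0.0279). ERBB2 was at 303, 323 and 310 CPM and then at 194, 163 and 246 CPM (-0.62 ± 0.15, adjusted p = 0.0349). EGFR, the target of the drug, was at 1588, 1473 and 1540 CPM in the DTPs and at 1236, 1456 and 1318 CPM after washout. Its groups did not overlap, but the difference of -0.19 ± 0.09 was not called (adjusted p = 0.156).

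**Figure D3:**
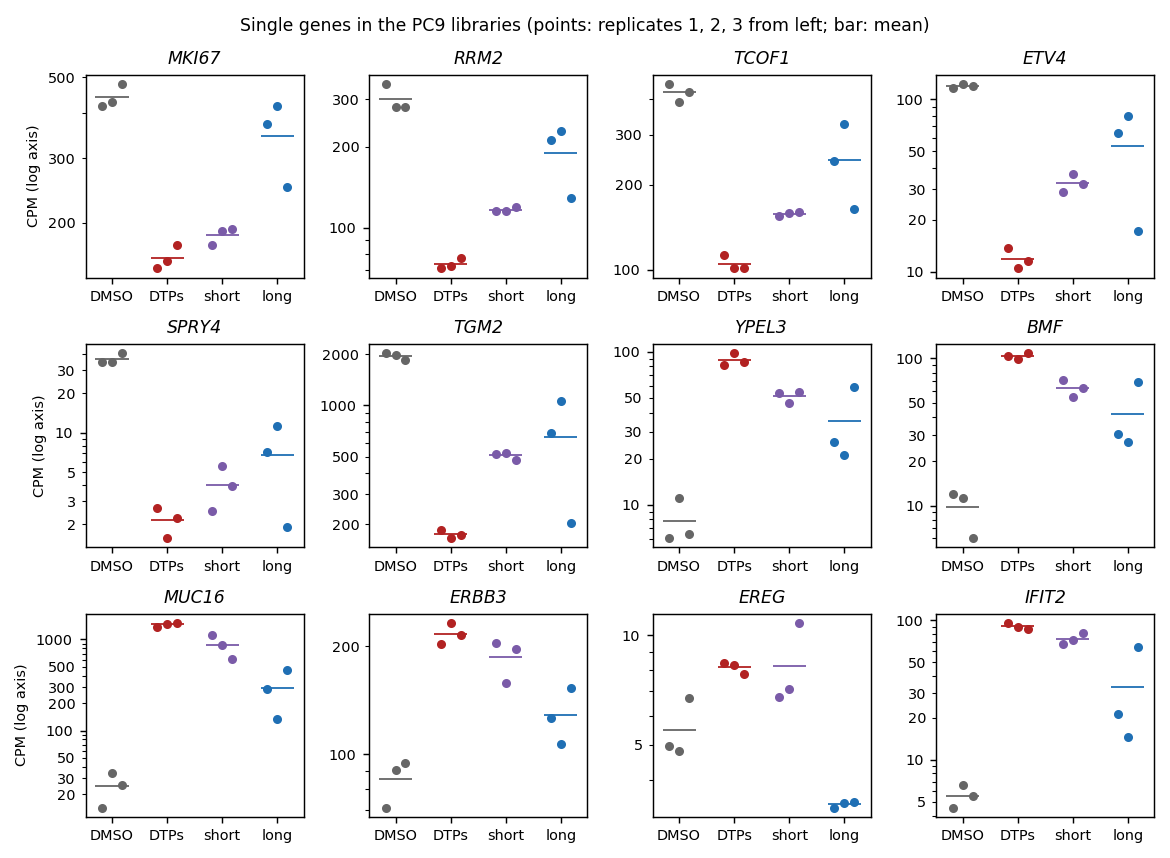
CPM of 12 genes (log axes) in the DMSO, DTP, short washout and long washout libraries of PC9, each point a replicate (1, 2 and 3 from the left) and each bar a mean. MKI67 lies at 250.0 CPM or higher in all 3 long washout libraries and at 174 CPM or lower in the DTPs, whereas SPRY4 and IFIT2 in long washout replicate 3 (1.90 and 64.5 CPM) lie close to the DTPs.

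Genes of the BCL2 family, which sets the threshold for apoptosis, gave 4 of 14 lower and 2 higher (median -0.16), where 5.47% of all genes were lower and 11.8% higher, so the share that rose was near that of all genes. Without replicate 3, 6 fell and 5 rose, beside 21.6% and 24.7%. The genes that fell include 3 BH3-only activators or sensitisers of cell death. BMF stood at 103, 99.4 and 108 CPM in the DTPs and at 30.6, 26.9 and 68.8 CPM after washout (-1.29 ± 0.33, adjusted p = 0.0397; -1.84 without replicate 3). HRK stood at 34.7, 32.7 and 40.6 CPM and then at 13.1, 14.0 and 20.7 CPM (-1.16 ± 0.19, adjusted p = 0.0277). BBC3, which encodes PUMA, fell by 0.85 ± 0.15 (adjusted p = 0.0277). The fourth was MCL1, an inhibitor of apoptosis, at -0.49 ± 0.13 (adjusted p = 0.0403). The 2 that rose were BAX, an effector of mitochondrial permeabilisation (0.51 ± 0.14, adjusted p = 0.0491), and BID, itself a BH3-only gene (0.41 ± 0.10, adjusted p = 0.0380). In all 6 genes, which were picked because they were called, the groups did not overlap. Among all genes tested this held for 25.5% that were higher and 20.4% that were lower.

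Of 26 ribosome biogenesis genes, 18 rose and none fell (median 0.69), beside 11.8% of all genes called higher. Without replicate 3, 24 rose, beside 24.7% of all genes. TCOF1, the nucleolar protein treacle, stood at 113, 101 and 102 CPM in the DTPs and at 243, 327 and 164 CPM after washout (1.23 ± 0.22, adjusted p = 0.0277). NOP56, a core protein of the methylating snoRNPs, stood at 120, 105 and 90.9 CPM and then at 230.3, 250.1 and 139.9 CPM (0.98 ± 0.21, adjusted p = 0.0305). URB2, an early ribosome assembly factor, rose by 0.94 ± 0.24. The long washout libraries lay above the DTPs in all 3 genes, and all 3 long washout libraries were below the DMSO means of 423, 397 and 41.8 CPM.

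NRF2 targets, the genes for glutathione, NADPH and aldo-keto reductases, gave 9 of 14 higher and none lower (median 0.49), beside 11.8% and 5.47% of all genes. Without replicate 3, 11 were higher and 1 lower, beside 24.7% and 21.6%. AKR1C2 stood at 86.3, 71.9 and 65.3 CPM in the DTPs and at 172, 216 and 119 CPM after washout (1.19 ± 0.21, adjusted p = 0.0277). NQO1, a quinone reductase, stood at 458, 429 and 411 CPM and then at 766, 742 and 512 CPM (0.65 ± 0.15, adjusted p = 0.0345). For both genes the groups did not overlap and long washout replicates 1 and 2 were above the DMSO means of 98.7 and 546 CPM. AKR1C1 rose by 0.92 ± 0.19 and AKR1B10 by 0.78 ± 0.18. AKR1C1 and AKR1C2 are near-identical copies, so their reads could be divided between them by the quantification. The list median relative to the DTPs was 0.59, 0.64 and 0.25 in the long washout libraries. It was 0.55, 0.44 and 0.66 in the acute libraries, which were in the drug, and -0.05, 0.13 and -0.02 in the short washout.

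All 24 genes for cholesterol and fatty acid synthesis had a log2 fold change above 0, but only 4 rose and 20 were not called (median 0.60), a share near the 11.8% of all genes called higher. Without replicate 3, 19 rose (median 0.78), beside 24.7% of all genes. The list median relative to the DTPs was 0.49, 0.96 and 0.15 in the long washout libraries and 0.41, 0.99 and 0.16 in the acute libraries. CYP51A1, a sterol demethylase, stood at 44.4, 45.5 and 40.1 CPM in the DTPs and at 62.0, 86.2 and 53.8 CPM after washout (0.65 ± 0.17, adjusted p = 0.0422). FDFT1, which encodes squalene synthase, rose by 0.61 ± 0.17 (adjusted p = 0.0462), and for both genes the groups did not overlap. Of 15 glycolysis and hypoxia genes, 4 rose and 1 fell (median 0.34), beside 11.8% higher and 5.47% lower among all genes. Without replicate 3, 8 rose and 5 fell, beside 24.7% and 21.6%. ENO1, enolase, went from 680.1, 648 and 606 CPM to 1257, 1491 and 862 CPM (0.91 ± 0.18, adjusted p = 0.0288), and LDHA and PFKP rose by 0.64 ± 0.12 and 0.75 ± 0.19. The member that fell was PFKFB3, the kinase that activates phosphofructokinase, at -0.64 ± 0.10 (adjusted p = 0.0262). Among 19 ATF4 targets, 3 rose and 1 fell (median 0.08), shares near the 11.8% and 5.47% of all genes. Without replicate 3, 7 rose and 5 fell, beside 24.7% and 21.6%. PSAT1, of serine synthesis, rose by 0.75 ± 0.17 and SLC7A11, the cystine transporter, by 0.58 ± 0.14, while the stress protein gene NUPR1 went from 25.8, 32.8 and 34.1 CPM to 8.70, 4.72 and 17.3 CPM (-1.58 ± 0.41, adjusted p = 0.0412).

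Of 21 lysosome and autophagy genes, 4 fell, none rose and 17 were not called (median -0.37), where 5.47% of all genes were called lower. Without replicate 3, 17 fell (median -0.53), where 21.6% of all genes did. PSAP, the precursor of the saposins, stood at 3133, 3047 and 3342 CPM in the DTPs and at 1699, 1300.1 and 2462 CPM after washout (-0.79 ± 0.21, adjusted p = 0.0428). ULK1, the kinase that starts autophagy, fell by 0.76 ± 0.21 and GAA, the acid alpha-glucosidase, by 0.74 ± 0.19. In these genes long washout replicate 3 was the closest to the DTPs, and the groups did not overlap. Of 9 aldehyde dehydrogenases, 1 fell with 6 libraries, beside 5.47% of all genes. Without replicate 3, 3 fell and 1 rose, beside 21.6% lower and 24.7% higher. The member that fell with 6 libraries was ALDH3B1, from 177, 198 and 176 CPM to 73.4, 63.9 and 123 CPM (-1.07 ± 0.23, adjusted p = 0.0302).

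Of the 26 lists, interferon-stimulated genes showed the widest gap between replicate 3 and the other long washout libraries. None of 26 was called with 6 libraries by edgeR or DESeq2 and 2 had an unadjusted p under 0.05 (median -0.42), and 21 fell without replicate 3 (median -1.50), where 21.6% of all genes were called lower. The list median relative to the DTPs was -1.37 and -1.83 in long washout replicates 1 and 2 and 0.53 in replicate 3, which lay within the short washout range of 0.27 to 0.63. In DMSO it was -3.08 to -2.69. IFI6 stood at 46.5, 46.0 and 53.7 CPM in the DTPs and at 12.1, 7.92 and 72.3 CPM after washout, so replicate 3 was above all DTPs and replicates 1 and 2 below them. IFIT2, an interferon-induced inhibitor of translation, stood at 95.8, 89.5 and 86.9 CPM and then at 21.4, 14.6 and 64.5 CPM. STAT2, a subunit of the interferon-activated factor ISGF3, stood at 122, 158 and 138 CPM and then at 41.5, 35.1 and 109 CPM. For IFIT2 and STAT2 all 3 long washout libraries lay below the DTPs, yet neither was called with 6 libraries (IFIT2 -1.42, adjusted p = 0.0736; STAT2 -1.16, adjusted p = 0.0749). The 3 genes of this paragraph were chosen after their values were seen.

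The MHC presentation genes followed the same division, with none of 16 called by edgeR with 6 libraries, 2 called lower by DESeq2 and 2 at an unadjusted p under 0.05 (median -0.45). Without replicate 3, 12 were called lower (median -0.76), beside 21.6% of all genes. The list stood at -0.63, -0.93 and 0.04 in long washout replicates 1, 2 and 3. HLA-DRA, HLA-DRB1, HLA-DPA1 and HLA-DPB1 were too low to test, with at most 0.33 CPM in any PC9 library. Of 13 chemokine and cytokine genes tested with 6 libraries, none was called by edgeR, 2 were called lower by DESeq2 and 2 had an unadjusted p under 0.05 (median -0.55). Without replicate 3, 6 of 15 fell (median -1.12), beside 21.6% of all genes.

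Genes of cell identity changed less uniformly, and several of their counts were near the shares of all genes. These shares were 5.47% lower and 11.8% higher with 6 libraries, and 21.6% and 24.7% without replicate 3. Of 15 YAP and TEAD targets, 3 fell and 1 rose (median -0.01; 4 fell and 1 rose without replicate 3). The receptor tyrosine kinase gene AXL rose by 0.72 ± 0.17 (adjusted p = 0.0339), from 96.8, 82.7 and 98.5 CPM to 141, 193 and 122 CPM. CRIM1 fell by 0.59 ± 0.16, AMOTL2 by 0.50 ± 0.12 and LATS2 by 0.44 ± 0.11, the last of them a kinase that restrains YAP. YAP1 itself differed by 0.00 ± 0.09 (adjusted p = 0.994), with 204, 197 and 204 CPM in the DTPs and 183, 208 and 210.1 CPM after washout. Epithelial junction genes gave 3 lower and 2 higher of 16 (median -0.18), and 9 lower and 2 higher without replicate 3. The tight junction genes CLDN4 and CLDN3 fell by 0.71 ± 0.16 and 0.91 ± 0.26 and OVOL1, an epithelial transcription factor, by 0.81 ± 0.18, while the plakophilin gene PKP3 rose by 0.48 ± 0.11 and EPCAM by 0.36 ± 0.10. None of 12 mesenchymal genes was called by edgeR or DESeq2, and 2 had an unadjusted p under 0.05 (2 lower without replicate 3). ITGB4 (-0.42 ± 0.10) and LAMA5 (-0.37 ± 0.10), an integrin and its laminin, were the 2 that fell of 17 matrix genes (7 lower and 5 higher without replicate 3). None of 11 alveolar lineage genes was called by edgeR, 1 was called lower by DESeq2 and 2 had an unadjusted p under 0.05 (4 lower without replicate 3).

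The labelled cell type was checked with markers. The 8 epithelial markers summed to between 10192 and 10564 CPM in the DTPs and to between 10848 and 12939 CPM after washout, and 2 of the 8 rose and 1 fell (3 rose and 3 fell without replicate 3). Among all genes 11.8% rose and 5.47% fell with 6 libraries, and 24.7% and 21.6% without replicate 3. KRT18 rose by 0.54 ± 0.13 (adjusted p = 0.0375), and the mucin gene MUC1 fell by 1.23 ± 0.28 (adjusted p = 0.0334), from 80.0, 87.5 and 72.4 CPM to 25.9, 24.1 and 51.7 CPM. Markers of other cell types were low. The 8 fibroblast markers summed to 32.5 to 41.6 CPM in the DTPs and to 24.6 to 30.2 CPM after washout, with THY1 at 0 in all 6 libraries. Of the 4 tested, none was called with 6 libraries by edgeR or DESeq2 and 2 had an unadjusted p under 0.05, but 2 fell without replicate 3, PDGFRB at -4.14 (adjusted p = 0.0044) and COL1A1 at -0.39 (adjusted p = 0.0462). The 7 leukocyte markers summed to 11.4 to 13.7 and 4.11 to 12.9 CPM, with CD3D at 0. The 1 tested, the integrin gene ITGAM, was at 12.9, 11.6 and 11.02 CPM in the DTPs and at 3.55, 4.02 and 12.7 CPM after washout, and was not called with 6 libraries (-0.80, adjusted p = 0.223) but fell without replicate 3 (-1.63, adjusted p = 0.000209). PDGFRB, COL1A1 and ITGAM were named after their values were seen, and the part of other cells in the results was not tested. The 6 endothelial markers summed to 15.3 to 17.2 and 16.5 to 29.8 CPM, with ERG at 0, and 1 of the 4 tested rose and 1 fell, with and without replicate 3. CDH5 rose (1.33 ± 0.29, adjusted p = 0.0312; 9.42, 6.89 and 6.68 CPM, then 24.3, 21.7 and 11.2 CPM) and VWF fell (-1.42 ± 0.39, adjusted p = 0.0461).

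**Figure D4:**
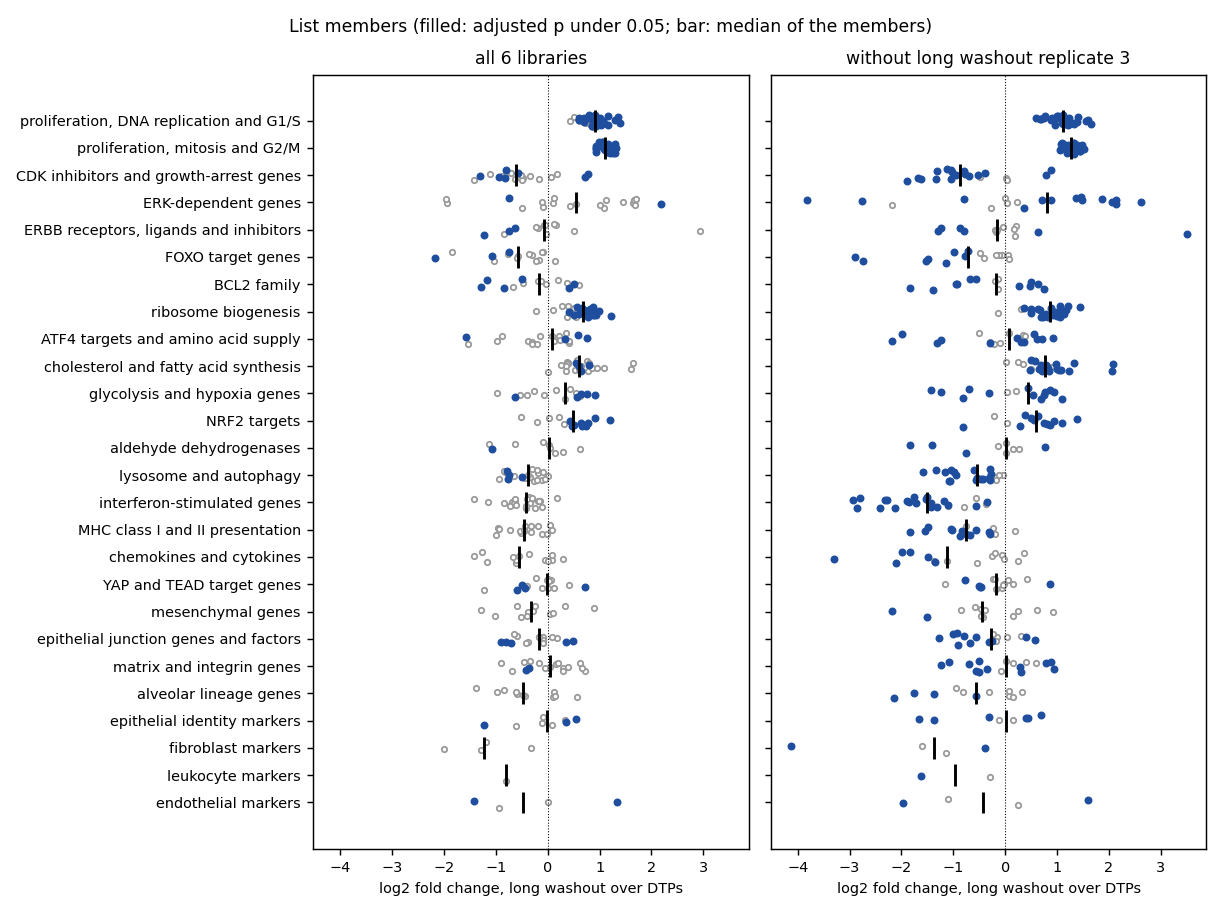
Log2 fold change (long washout over DTPs) of every tested member of the 26 lists, with all 6 libraries (left) and without long washout replicate 3 (right), where filled points are called, open points are not, and bars are medians. All 30 mitosis genes are filled on both sides, while the interferon-stimulated genes go from 0 filled points of 26 to 21.

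Over all genes, the 12 called genes with the highest fold changes held, after ETV4, TGM2 (1.90 ± 0.49), MARCHF4 (1.79 ± 0.39), ANO1 (1.59 ± 0.35), CALB2 (1.53 ± 0.39), UBASH3B (1.52 ± 0.37), CDCA7 (1.48 ± 0.27), PSRC1 (1.46 ± 0.23), FABP5 (1.46 ± 0.26), PDXP (1.44 ± 0.36), PARVB (1.44 ± 0.32) and PBK (1.40 ± 0.20). TGM2, tissue transglutaminase, stood at 185, 166 and 173 CPM in the DTPs and at 690.5, 1056 and 203 CPM after washout, with 507 CPM on average in the short washout and 1954 in DMSO. ANO1, a calcium-activated chloride channel, stood at 50.9, 40.7 and 35.3 CPM and then at 123, 191 and 65.6 CPM. Each of the 12 genes had higher values in all 3 long washout libraries than in any DTP library, as the rule for naming required. PSRC1 and PBK act in mitosis, and CDCA7 is a regulator of chromatin in proliferating cells. Replicate 3 was the lowest of the long washout libraries in 11 of the 12, PDXP being the exception.

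The 12 lowest were PNPLA7 (-2.84 ± 0.64), C15orf62 (-2.40 ± 0.52), MUC16 (-2.29 ± 0.39), IQCN (-2.28 ± 0.49), PDK4, CGB7 (-2.09 ± 0.57), TNXB (-2.04 ± 0.36), AMY2B (-1.91 ± 0.52), GPNMB (-1.89 ± 0.42), MFSD4A (-1.82 ± 0.45), C2orf72 (-1.79 ± 0.39) and RHOV (-1.78 ± 0.47). MUC16, the mucin that carries the CA125 antigen, stood at 1386, 1493 and 1523 CPM in the DTPs and at 290, 134 and 466 CPM after washout. Its mean was 870.2 CPM in the short washout and 24.6 CPM in DMSO. GPNMB, a glycoprotein of lysosome-rich cells, stood at 156, 182 and 191 CPM and then at 39.2, 21.0 and 80.8 CPM. PNPLA7, a lysophospholipase, stood at 9.61, 10.2 and 8.48 CPM and then at 1.32, 0.194 and 2.41 CPM. Replicate 3 was the highest of the long washout libraries in all 12, and the fold changes without it were larger in size (MUC16 -2.78, GPNMB -2.54, PNPLA7 -3.65). CGB7 and AMY2B belong to families of near-identical copies, so that their values are uncertain.

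Long washout was also set against the short washout, which shares the 21 days of drug but had 24 h without it. These 6 libraries gave 1 called gene of 14278 (0.007%), GABBR2, a subunit of the GABA-B receptor, which stood at 160, 152 and 158 CPM in the short washout and at 78.5, 75.0 and 83.7 CPM in the long washout (-0.99 ± 0.08, adjusted p = 0.0447). DESeq2 called 791, and 2818 genes had an unadjusted p under 0.05. Without long washout replicate 3, 4494 of 14559 genes (30.9%) were called, 2255 higher (15.5%) and 2239 lower (15.4%). Then all 30 mitosis genes were higher (median 1.11), 29 of 33 replication genes were higher (median 0.62), and 23 of 26 interferon-stimulated genes were lower (median -1.99). The adenosine receptor gene ADORA1 was the highest, at 2.15 ± 0.17, among the genes called without replicate 3 whose mean over the 6 libraries reached 5 CPM, with 3.86, 2.84 and 3.27 CPM in the short washout and 14.2, 15.6 and 2.54 CPM in long washout replicates 1, 2 and 3. SERPINB2, a plasminogen activator inhibitor, was the lowest by the same limits, at -4.57 ± 0.48, with 50.02, 39.8 and 39.6 CPM and then 3.12, 0.606 and 19.2 CPM. In ADORA1 replicate 3 lay below all 3 short washout libraries, and in SERPINB2 it lay between the short washout and the other long washout libraries.

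The change from DTPs to long washout in PC9 was compared with that in HCC827 and HCC2935 by the interaction of line and washout. These are EGFR-mutant lines treated in the same way and collected after 4 and 10 days without drug. The times differ between the lines, so time and line cannot be told apart. Against HCC827, none of 15274 genes was called by edgeR, although 3523 had an unadjusted p under 0.05 and DESeq2 called 1418; without PC9 long washout replicate 3, 2906 were called (19.0%), 1640 higher (10.7%) and 1266 lower (8.3%) in PC9. In HCC827 the mitosis list stood at -0.16, 0.11 and 0.08 log2 units from the DTPs of that line in its 3 long washout libraries, and the replication list at 0.00, -0.03 and 0.29. The median difference between PC9 and HCC827 was 1.16 for mitosis genes, of which 29 of 30 had an unadjusted p under 0.05 and 26 were called higher in PC9 without replicate 3. For replication genes it was 0.90, with 25 of 33 called without replicate 3.

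Against HCC2935, 14 of 15368 genes differed (0.0911%), 5 with a higher (0.0325%) and 9 with a lower (0.0586%) change in PC9, and without PC9 replicate 3 it was 6.63% higher and 6.46% lower. The proliferation lists showed no called gene: the mitosis list stood at 0.94, 1.81 and 1.43 in the HCC2935 long washout libraries, and 0 of 30 mitosis genes had an unadjusted p under 0.05. The lists that held the most calls without PC9 replicate 3 were interferon-stimulated genes (22 of 26 lower in PC9), ribosome biogenesis (14 of 26 higher) and MHC presentation (12 of 20 lower). The interferon list stood at 0.55, 0.44 and 0.69 in the HCC2935 long washout libraries. In PC9 on the same scale it stood at -1.14, -1.63 and 0.45, so that replicate 3 was within the HCC2935 range. NRF2 targets stood at -0.42, -0.09 and -0.11 in HCC2935 and at 0.58, 0.62 and 0.23 in PC9. AKR1C3, an aldo-keto reductase of that list, was 1 of the 14 genes, with log2 fold changes of 0.71 in PC9 and -0.91 in HCC2935 and a difference of 1.62 ± 0.23 (adjusted p = 0.0202).

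**Figure D5:**
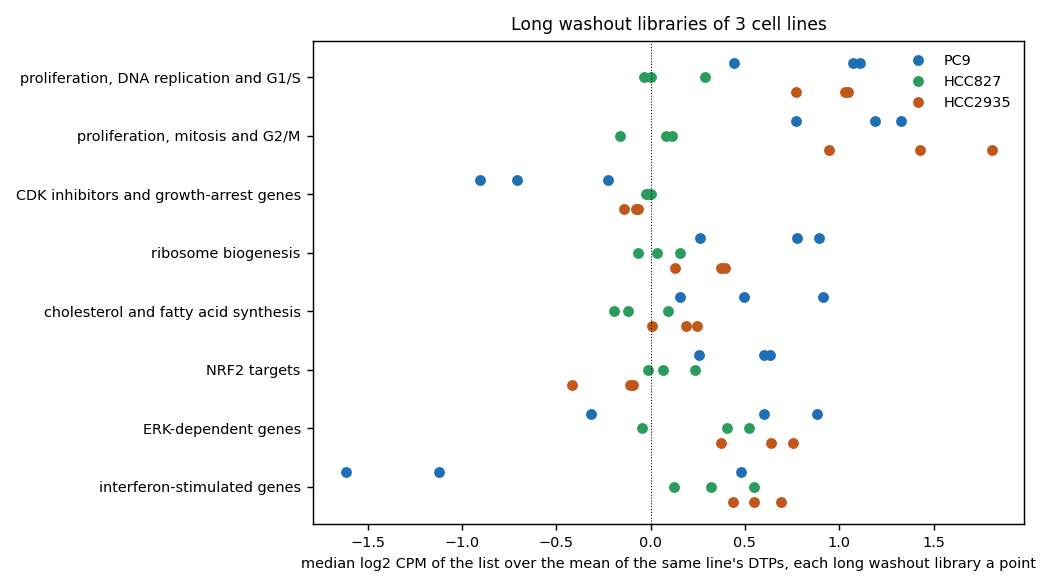
Median of 8 gene lists in each long washout library of PC9, HCC827 and HCC2935 (points), as log2 CPM minus the mean of the DTPs of the same line. Mitosis genes lie at 0.94 to 1.81 in HCC2935 and at -0.16 to 0.11 in HCC827, and interferon-stimulated genes are below 0 in PC9 replicates 1 and 2 among these libraries.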

How the data were processed

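Bulk RNA-seq libraries (mRNA TruSeq, paired-end reads) were made from 4 lines in 5 arms. For 19712 gene symbols the deposited files give estimated counts without scaling between libraries. A second deposited table gives log2 TPM, to which 0.01 had been added before the log. The submitters' processing notes list HISAT2 2.1.0, Salmon 0.8.2 and hg38, without their roles; the annotation is not given in the sources used here. Groups and replicate numbers came from the labels. The comparison, the gene lists and the tests were chosen with earlier results of these data known.

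Rounded estimated counts entered edgeR 4.0.16 (R 4.3.3). A comparison used its own libraries (6, or 12 for the interaction of line and washout), TMM normalization, filterByExpr at its default setting, the quasi-likelihood F-test and Benjamini-Hochberg adjustment over all genes tested, with calls at an adjusted p under 0.05. Standard errors are the absolute log2 fold change divided by the square root of F. CPM values were normalized by TMM over the 15 PC9 libraries (over the 12 libraries of the fit for comparisons between lines), and log2 CPM used a prior count of 1. The depth of the 6 libraries was 34.7 to 45.1 M counts. The scripts were tested on simulated data. Named genes were 7 fixed ones, the 12 highest and 12 lowest called genes whose mean reached 5 CPM and whose groups did not overlap, up to 3 called members in each direction and the first gene of each list, and up to 6 in each direction in the other comparisons. First genes that were not called are not described singly. Where a text passage names another list member, it was chosen after its values were seen. Of 109 named genes, 108 matched GENCODE release 29, 52 share bases with an opposite-strand gene and 38 with a same-strand gene, and a named pseudogene exists for 14; whether counting used strand is not given in the sources used here. VEGFA and NKX2-1 were not analysed here. One called gene of the rule is not reported here. Alternatives were DESeq2 1.42.0, RLE size factors, scaling by library size, omission of the filter, a minimum of 10 counts per library, a threshold of 0.01, a replicate block, limma 3.58.1 on log2 TPM with pseudocounts of 0.01 and 1, all 15 PC9 libraries in 1 fit, libraries thinned to the smallest total, and each library left out in turn. DESeq2 without long washout replicate 3, and replicates 1 and 2 of both groups with a replicate block, were chosen after seeing the data. So was the choice to give each list without long washout replicate 3, although leaving out each library in turn was planned. Figures were made with Python 3.11.15, pandas 2.3.3 and matplotlib 3.10.9.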

Additional observations from a re-analysis of the deposited data

Results flagged for a closer look

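The change after washout differed between PC9 and HCC2935 for 14 genes in the interaction test of edgeR. The time without drug also differed, 7 against 10 days, and the 2 cannot be told apart. Higher in PC9 relative to HCC2935 were DGCR6 (difference of 1.72 in log2 fold change; 0.23 in PC9 and -1.49 in HCC2935), AKR1C3 (1.62; 0.71 and -0.91), RAB15, a small GTPase (1.48; 0.28 and -1.20), CYB5A, cytochrome b5 (1.19; 0.68 and -0.51) and NARF (0.82; 0.27 and -0.55). In DGCR6 the PC9 libraries ran from 5.68 to 7.82 CPM in DTPs and from 7.10 to 8.32 CPM after washout, so the groups overlapped, while in HCC2935 the values dropped from between 44.3 and 58.1 CPM to between 16.7 and 20.1 CPM. Lower in PC9 were ARL10 (difference of -2.91; -1.85 and 1.06), HAS3, a hyaluronan synthase (-2.52; -0.55 and 1.97), DNAH17 (-2.48; -0.95 and 1.53), CD68 (-2.19; -0.16 and 2.03), MCC (-2.06; -1.01 and 1.05) and ZG16B (-1.47; -0.78 and 0.69). CD68, a lysosomal glycoprotein best known from macrophages, stood at 21.7, 17.2 and 17.7 CPM in PC9 DTPs and at 14.5, 19.8 and 16.3 CPM after washout, and in HCC2935 at 7.34, 7.11 and 8.03 CPM and then at 20.5, 34.4 and 37.0 CPM. FHL2, IL1R1 and NBPF14 were the other called genes. None of the 14 was called with a replicate block, without PC9 long washout replicate 1, without PC9 DTP replicate 1 or without HCC2935 DTP replicate 1. Of the 14, 1 was called without HCC2935 DTP replicate 2, 3 without PC9 DTP replicate 2 and 5 without HCC2935 long washout replicate 3. The number was 7 without replicate 3 of the DTPs of either line. It was 8 without PC9 long washout replicate 2 and 9 without HCC2935 long washout replicate 2. All 14 were called without PC9 long washout replicate 3, and also without HCC2935 long washout replicate 1.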

How the results depend on the processing

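Depth was similar in the 6 libraries, and thinning them to the smallest total called 2509 genes. The number of genes called between long washout and DTPs (2496) was 0 at an adjusted p under 0.01, 4225 with DESeq2, 5532 with all 15 PC9 libraries in 1 fit, 7051 with DESeq2 without long washout replicate 3, 5671 in replicates 1 and 2 with a replicate block, and 0 to 6815 with 1 library left out, the 6815 being without long washout replicate 3. The split was 1707 higher and 789 lower, but 2384 and 1841 with DESeq2, 3037 and 2495 with all 15 libraries, and 3638 and 3177 without replicate 3. The replicate block gave 2160. Same-numbered libraries deviated from their group means with correlations of 0.10, 0.00 and 0.06, so the numbers were not taken to pair the samples. The cause of these differences was not tested. Against the short washout, the 1 call became 0 at 0.01, with library size only or with a replicate block, 791 with DESeq2, and 0 to 4494 with 1 library left out. Against HCC827, 0 calls became 1418 with DESeq2 and 0 to 2906 with 1 library left out. Against HCC2935, 14 calls became 0 at 0.01 or with a replicate block, 734 with DESeq2, 30 with RLE size factors, 42 with no filter, 50 with at least 10 counts in every library, and 0 to 2016 with 1 library left out. CDKN1B, at 0.07, turned to -0.041 and -0.040 with limma at pseudocounts of 0.01 and 1. YAP1, at 0.00, turned to -0.0060 with DESeq2, -0.016 with RLE size factors, -0.021 with at least 10 counts, -0.020 with all 15 libraries, -0.043 with library size only, -0.0014 with a replicate block, -0.11 and -0.10 with limma at 0.01 and 1, -0.033 with DESeq2 without long washout replicate 3, -0.035 in replicates 1 and 2 with a replicate block, and lay between -0.033 and 0.057 with 1 library left out. The other genes named by the rule for the comparison with DTPs kept their sign in the settings above. Genes named after their values were seen, and genes named in the other comparisons, were not followed through all of these settings. Limma on log2 TPM shifted the median of all genes by -0.11.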
